A study of Mus musculus with 6 samples.

Results

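The subunits of the receptors for glutamate, GABA and glycine were followed in RNA-seq of mouse neural progenitor cells (NPCs). The genes were taken by symbol alone: the AMPA (Gria), kainate (Grik), NMDA (Grin) and delta (Grid) glutamate receptor subunits, the metabotropic glutamate receptors (Grm), the GABA-A receptor subunits including the rho subunits (Gabr), and the glycine receptor subunits (Glra and Glrb). They made up 50 of the 51733 gene symbols in the count tables. The NPCs were isolated from the neural tubes of E13.5 embryos by sorting for SOX2, and stranded libraries of total RNA were sequenced from 3 control and 3 Ybx1-KO samples. Controls were wildtype at Ybx1 and siblings of the knockouts. Ybx1-KO embryos were homozygous for the germline allele Ybx1 tm1Ley, so that the gene was targeted in every cell of the embryo and not in NPCs alone, and such embryos are known to develop exencephaly. Both groups were C57BL/6 embryos of either sex, and sorting used a Sox2-eGFP reporter (Sox2 tm1Hoch), which reports the activity of the Sox2 gene. Libraries are named here control 1 to 3 and Ybx1-KO 1 to 3. Control 1 and 2 share a number in their titles and so do Ybx1-KO 1 and 2, and what the numbers stand for is not explained. The p-values measure the spread between these samples, part of which may be technical.

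AMPA, kainate and NMDA receptors are cation channels of 4 subunits opened by glutamate, and the metabotropic receptors act through G proteins. GABA-A receptors are chloride channels of 5 subunits, usually alpha and beta subunits with a gamma subunit, and glycine receptors are chloride channels built from alpha subunits with the beta subunit Glrb. In the embryonic nervous system GABA and glutamate act before synapses form, on progenitors as well as on young neurons, and GABA is often depolarizing at these ages. YBX1 is an RNA- and DNA-binding protein of the Y-box family, named for an inverted CCAAT element in DNA.

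The summed level of the 50 subunits was lower in every Ybx1-KO library than in every control library, and so were the sums of the AMPA subunits and of the GABA-A receptor subunits. Levels are given in FPKM, the TMM-scaled CPM per kb of exon, which corrects for depth, library composition and gene length. The sum over all 50 genes was 135, 109 and 112 FPKM in the controls and 73.1, 88.4 and 85.3 FPKM in Ybx1-KO. These sums depend on the TMM factors, which ran from 0.727 in Ybx1-KO 2 to 1.57 in Ybx1-KO 3. With library totals instead, the sum of the 50 subunits in Ybx1-KO 3 would overlap the controls. The GABA-A sum of Ybx1-KO 3 would then lie above every control, and the AMPA sums would stay lower in every Ybx1-KO library. Gene positions are given on GRCm38. Within this lower sum, 5 members stood higher in all 3 Ybx1-KO libraries than in any control, namely Grik4, Grin2d, Grin3b, Grm2 and Grm4. The share of such genes over all genes tested was 4.99%. All 5 entered the test through their level in Ybx1-KO alone, so the count describes them and supports no difference.

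Counts on genes ran from 4743279 in Ybx1-KO 3 to 23883542 in control 2, and the controls were all deeper than the knockouts. Ybx1 itself stood at 94.2, 209.8 and 121 FPKM in the controls and at 49.8, 21.9 and 3.82 FPKM in Ybx1-KO, with a log2 fold change of −2.49 ± 0.68 (SE, edgeR adjusted p = 0.301). The libraries of Ybx1-KO 1 and 2 thus still held Ybx1 counts, and the part of the gene that the allele removes was not examined here. Ybx1-KO 3 stood apart: 59.5% of its read pairs lay outside genes, and 83.8% of 1467 olfactory, vomeronasal and taste receptor genes, which are silent in most tissues, had counts in it, against 2.66% to 31.2% in the other libraries. In Ybx1-KO 3 the silent genes had a 90th percentile of 1.52 FPKM, and 30 of the 50 receptor subunits were at or below that level. In the other libraries between 2 and 11 subunits were at or below the 90th percentile of the silent genes, which was 0.0636 FPKM or less.

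Markers of progenitors and of neurons were both present. Sox2 stood at 8.49, 20.9 and 23.5 FPKM in the controls and at 16.3, 24.6 and 11.7 FPKM in Ybx1-KO. Tubb3, a tubulin of young neurons, stood at 149 to 549 FPKM over the 6 libraries, and the summed level of 14 neuron markers overlapped between the groups, at 707, 1377 and 1106 FPKM in the controls and 1375, 1136 and 521 FPKM in Ybx1-KO. No neuron marker was at 0 in any library. Regional markers split the libraries in another way. The sum of 7 forebrain genes was 372 and 355 FPKM in control 1 and 3 but 20.5 FPKM in control 2 and 33.2, 31.7 and 11.6 FPKM in Ybx1-KO. Of these genes 6 had a log2 fold change below 0, while Emx2 did not, at 0.26 ± 0.53 (SE). The sum of 9 Hox genes of hindbrain and spinal cord was 22.01, 191 and 55.2 FPKM in the controls and 255, 256 and 106 FPKM in Ybx1-KO, so that control 2 lay with the Ybx1-KO libraries in both lists. The sum of 6 mesenchyme genes was 115 FPKM in control 1, 17.2 and 30.6 FPKM in control 2 and 3, and 8.51 to 17.2 FPKM in Ybx1-KO. The sums of the microglia, endothelium, erythroid, Schwann and oligodendrocyte lists overlapped between the groups. Of the 5 Schwann genes, 3 were higher in every Ybx1-KO library, and of the 9 progenitor genes 2 (Nes and Hes5), against 4.99% of all genes tested. Of the 14 neuron genes 2 (14.3%) were lower without overlap, against 8.15% of all genes tested. Among tested genes with exons at least as long as the median tested subunit, 14.5% were lower without overlap. The part of these cell mixtures in the receptor values was not tested, and in sorted bulk samples fewer cells of a type and less RNA per cell cannot be told apart.

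Of the 50 subunits, 28 entered the test, with a mean FPKM, here scaled by each library's own total, above 1 in either group. These were 15 that passed in both groups, 4 in the controls alone and 9 in Ybx1-KO alone, and a gene that passed in 1 group alone was more likely to differ. No member reached an adjusted p below 0.05 with a fold change above 1.5 in edgeR's quasi-likelihood test, where 0 of the 21329 genes tested (0%) were called. The smallest adjusted p among the members was 0.216, for Grik2. At an unadjusted p below 0.05, 12 of the 28 members were lower in Ybx1-KO against 4.26% of all genes tested, and 5 were higher against 6.96%. Over all genes, 2393 had such a p in edgeR and 1656 in limma-voom, which also called no gene, while DESeq2 called 118 genes higher and 96 lower, Gria2 and Grik2 among the latter. The count of members called also depended on single libraries. On those of the 21329 genes with counts in the libraries left, it was 1 without control 2 (Glra1), 1 without Ybx1-KO 2 (Grik2) and 0 without any of the other 4 libraries. With the level filter applied again to the libraries left, it was 5 without Ybx1-KO 1 (Gria2, Gria3, Grik2, Glra1 and Glra2) and 3 without Ybx1-KO 2 (Gria2, Grik2 and Grin2d).

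All 3 Ybx1-KO libraries lay below all 3 controls for 11 of the 28 tested members, against 8.15% of the genes tested, and above them for 5, against 4.99%. All 5 higher members entered the test through Ybx1-KO alone, and Grm3, Gabra3 and Glrb of the lower ones through the controls alone, so these counts are a description of the members and not support for a difference. With all 50 members counted, Grm7 joined the first list, which gives 12 lower against 4.92% of the 42828 genes with any count, and 5 higher against 2.99%. The 4.92% is not a like-for-like share, since control 2 had counts on 27356 genes and a gene with no counts in a control cannot be lower. Among the 11 were Gria1, Gria2, Gria3, Grik2, Grin2b, Grm3, Gabra2, Gabra3 and Glrb. Lack of overlap by itself gave each of the 16 tested members a two-sided exact permutation p of 0.1, the smallest that 3 against 3 libraries allow. It also left almost no room for a change of sign, so that all 16 kept theirs without control 2 and without Ybx1-KO 3 adds no support. With library totals in place of TMM factors the count of 11 became 7, as Gria1, Grin2b, Gabra2 and Glrb then overlapped.

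The median log2 fold change of the 28 tested members was −0.61, beside 0.31 over all genes tested and 0.05 over the protein-coding ones. Without Ybx1-KO 3 it was −0.75, beside −0.16 over all genes. With no level filter, all 50 members had a median of −0.39, beside 0.70 over all genes, and 29 of the 50 were below 0. The receptor genes are long, with a median of 5970 exon bases against 2691 over all genes tested. Among the 4261 tested genes with exons at least that long the median log2 fold change was −0.18, and 14.5% of them were lower without overlap and 4.04% higher.

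**Figure D1:**
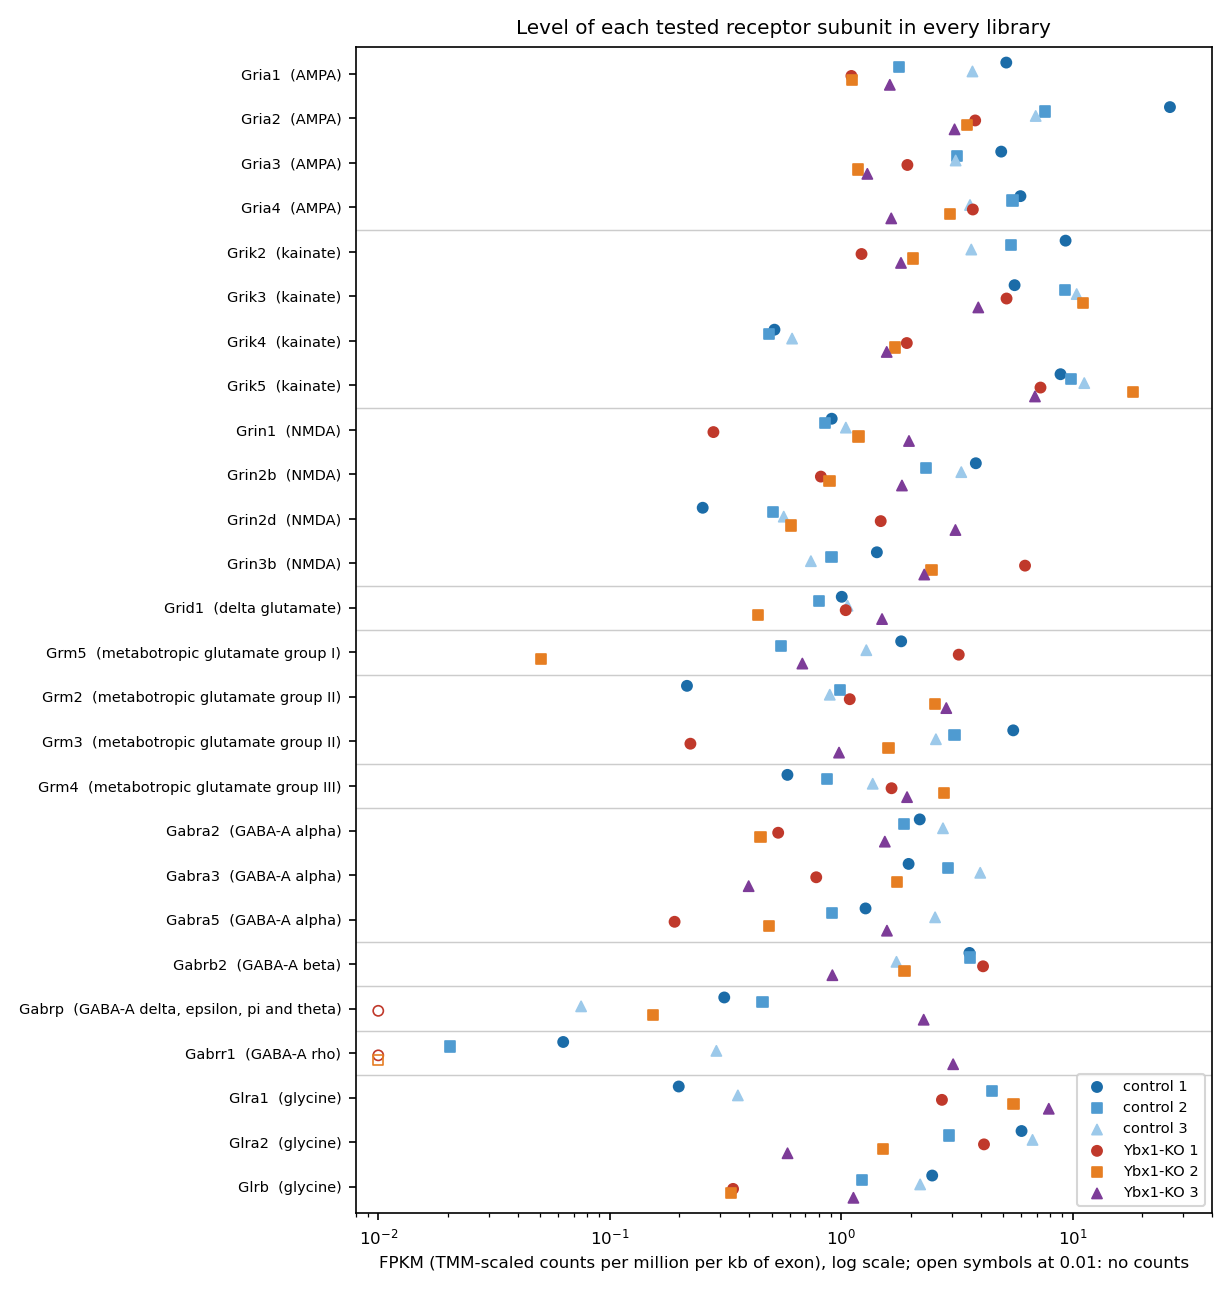
Level of 26 of the 28 tested receptor subunits in each library, in FPKM on a log axis, with blue symbols for controls and red, orange and purple symbols for Ybx1-KO 1, 2 and 3. Subunits with no counts in a library are drawn as open symbols at 0.01. All Ybx1-KO symbols lie left of all control symbols for 9 of these subunits and right of them for 5.

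The promoters of 3 members are shown as examples with and without the element that gives Y-box proteins their name. They were chosen after the search, Gabra2 and Grm2 because they held the element and Gria2 because it did not. Gria2 was also among the tested members with the lowest unadjusted p (0.00136, edgeR quasi-likelihood F test). Gria2 and Gabra2 were lower in Ybx1-KO without overlap and Grm2 was higher. The sequences are the 250 bases before the RefSeq start of transcription on GRCm38.p6, all on the minus strand and written 5′ to 3′ in the direction of transcription, and capitals mark CCAAT or its reverse complement ATTGG.
Gria2, chr3:80802836-80803085: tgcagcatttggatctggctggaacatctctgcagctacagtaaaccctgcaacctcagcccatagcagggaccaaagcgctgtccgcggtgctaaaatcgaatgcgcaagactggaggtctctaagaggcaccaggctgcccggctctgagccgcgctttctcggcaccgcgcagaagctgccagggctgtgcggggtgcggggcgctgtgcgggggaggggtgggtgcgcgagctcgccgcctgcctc
Gabra2, chr5:71095850-71096099: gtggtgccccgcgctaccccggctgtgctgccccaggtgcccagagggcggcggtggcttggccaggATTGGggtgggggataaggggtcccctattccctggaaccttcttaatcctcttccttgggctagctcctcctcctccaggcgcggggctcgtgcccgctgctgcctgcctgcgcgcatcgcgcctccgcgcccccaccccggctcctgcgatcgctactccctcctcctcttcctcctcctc
Grm2, chr9:106656110-106656359: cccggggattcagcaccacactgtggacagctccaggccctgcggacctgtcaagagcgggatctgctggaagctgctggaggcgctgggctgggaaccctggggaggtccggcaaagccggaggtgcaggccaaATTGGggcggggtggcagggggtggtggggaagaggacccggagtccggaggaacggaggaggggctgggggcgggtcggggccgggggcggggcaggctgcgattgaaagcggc
The Gria2 window held no match, while ATTGG lay 183 bases before the start of Gabra2 and 115 bases before that of Grm2. CCAAT was searched on both strands in windows of 300 bases that run 50 bases past the start. RefSeq promoters were at hand for 34 of the 50 members, and 16 of these (47.1%) held the letters in at least 1 promoter, beside 41.1% of all 27025 genes. Among the tested members without overlap they were found in 2 of the 6 lower and in 1 of the 4 higher genes with a promoter.

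Of the 4 AMPA receptor subunits, Gria1, Gria2 and Gria3 were lower in Ybx1-KO without overlap, and Gria4 overlapped. Their summed level was 42.4, 18.0 and 17.3 FPKM in the controls (25.9 ± 14.3, SD, n = 3) and 10.54, 8.73 and 7.65 FPKM in Ybx1-KO (8.97 ± 1.46, SD, n = 3). Gria2 (chr3:80681450-80802835), whose edited subunit makes AMPA receptors impermeable to calcium, had the largest share of this sum in every library, at 26.3, 7.57 and 6.92 FPKM in the controls and 3.79, 3.49 and 3.09 FPKM in Ybx1-KO. Control 1 was far above the other controls, and every Ybx1-KO library was below the lowest control. The log2 fold change of Gria2 was −1.98 ± 0.51 (SE), with an adjusted p of 0.287 by edgeR's quasi-likelihood test, and −1.07 without control 1.

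Gria1 (chr11:57011387-57330244), the subunit that dominates at many plastic synapses, stood at 5.17, 1.77 and 3.69 FPKM in the controls and 1.11, 1.12 and 1.62 FPKM in Ybx1-KO. The groups did not overlap, but the lowest control, control 2, was close to Ybx1-KO 3. Its log2 fold change was −1.47 ± 0.48 (SE, edgeR adjusted p = 0.402). Gria3 (chrX:41400854-41678601), an X-linked subunit, stood at 4.91, 3.16 and 3.12 FPKM in the controls and 1.93, 1.18 and 1.30 FPKM in Ybx1-KO, with a log2 fold change of −1.34 ± 0.40 (SE, edgeR adjusted p = 0.359). The Gria3 value of Ybx1-KO 3 was within the range of the silent genes in that library. Gria4, an early-expressed subunit, overlapped, at 5.95, 5.49 and 3.602 FPKM in the controls and 3.70, 2.95 and 1.65 FPKM in Ybx1-KO. Its difference was −0.86 ± 0.42 (SE) on the log2 scale, with an edgeR adjusted p of 0.447. The shares of the 4 subunits in the AMPA sum overlapped between the groups for all 4.

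The kainate receptor subunits went apart. Their summed level overlapped, at 25.0, 25.7 and 26.6 FPKM in the controls and 15.8, 33.6 and 15.4 FPKM in Ybx1-KO. Grik2 (chr10:49094833-49788766), the GluK2 subunit that forms channels by itself, stood at 9.32, 5.43 and 3.65 FPKM in the controls and 1.22, 2.04 and 1.81 FPKM in Ybx1-KO. All Ybx1-KO libraries were below the lowest control, with a log2 fold change of −1.86 ± 0.43 (SE, edgeR adjusted p = 0.216). Its share of the kainate sum was 37.2%, 21.1% and 13.7% in the controls and 7.74%, 6.07% and 11.8% in Ybx1-KO.

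Grik4 (chr9:42518135-42944493), which encodes the high-affinity subunit GluK4 and needs a partner such as GluK2 to form a channel, was higher. It stood at 0.515, 0.487 and 0.614 FPKM in the controls and 1.92, 1.71 and 1.57 FPKM in Ybx1-KO. The values within each group lay close together, with a log2 fold change of 1.68 ± 0.60 (SE, edgeR adjusted p = 0.425). The value of Ybx1-KO 3 was only just above the 90th percentile of its silent genes, 1.52 FPKM. Grik4 also entered the test through Ybx1-KO alone. Grik5, encoding the related GluK5 and the kainate subunit with the highest mean, stood at 8.86, 9.84 and 11.2 FPKM in the controls and 7.26, 18.3 and 6.87 FPKM in Ybx1-KO. Its log2 fold change of 0.12 ± 0.42 (SE, edgeR adjusted p = 0.913) was smaller than its error, and Ybx1-KO 2 alone lay above the controls. Its share of the kainate sum was higher without overlap, at 35.4%, 38.3% and 42.2% in the controls and 45.9%, 54.5% and 44.6% in Ybx1-KO. Shares within a class depend on each other, and a lower share of Grik2 raises the rest, so this is no separate difference of Grik5. Grik3 overlapped too, with a log2 fold change of −0.32 ± 0.44 (SE), and Grik1 was under the filter at 0.219 to 1.23 FPKM.

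Of the NMDA receptor subunits, Grin2b was lower and Grin2d and Grin3b were higher without overlap, and none was called. Grin2d and Grin3b entered the test through Ybx1-KO alone, so their direction supports no difference. Grin2b (chr6:135713233-136173511), the GluN2B subunit typical of embryonic brain, stood at 3.82, 2.32 and 3.30 FPKM in the controls and 0.817, 0.890 and 1.83 FPKM in Ybx1-KO. The highest Ybx1-KO value came from Ybx1-KO 3 and was still below the lowest control. The log2 fold change was −1.42 ± 0.42 (SE, edgeR adjusted p = 0.359). Grin2b made up 49.2%, 38.1% and 46.3% of the NMDA sum in the controls and 7.96%, 14.4% and 15.97% in Ybx1-KO.

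Grin2d (chr7:45831883-45878378), the GluN2D subunit of slowly closing receptors, stood at 0.252, 0.506 and 0.565 FPKM in the controls and 1.48, 0.608 and 3.12 FPKM in Ybx1-KO. Ybx1-KO 2 was only just above control 3, and without Ybx1-KO 3 the log2 fold change of 1.97 ± 0.69 (SE, edgeR adjusted p = 0.420) was 1.23. Grin3b (chr10:79970715-79977190), encoding a glycine-binding subunit known mainly from motor neurons, stood at 1.43, 0.909 and 0.740 FPKM in the controls and 6.23, 2.46 and 2.28 FPKM in Ybx1-KO, with a log2 fold change of 1.83 ± 0.63 (SE, edgeR adjusted p = 0.410). Here Ybx1-KO 1 was the highest library, and all 3 lay above the highest control. Grin1, the obligatory subunit, was low and overlapped, at 0.910, 0.849 and 1.046 FPKM in the controls and 0.281, 1.19 and 1.96 FPKM in Ybx1-KO. The log2 fold change of Grin1 was 0.29 ± 0.60 (SE), and −0.39 without Ybx1-KO 3. Grin3a lay close to the filter in the controls, at 1.02, 1.11 and 1.08 FPKM, and overlapped with 1.14, 0.660 and 0.567 FPKM in Ybx1-KO. Its share of the NMDA sum was 13.1% to 18.2% in the controls and 4.95% to 11.1% in Ybx1-KO. Grin2a and Grin2c were below 1 FPKM in every library.

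Some of these genes share exons with a gene on the other strand, whose reads cannot be told apart where the strand setting of the counting is not given. Of the exon bases of Grin3b 32.1% lie under exons of Tmem259, which stood at 6.00, 3.68 and 5.01 FPKM in the controls and 8.80, 6.50 and 4.36 FPKM in Ybx1-KO. For Tmem259 the groups overlapped, with a log2 fold change of 0.42 ± 0.40 (SE). Grin1 shares 13.5% of its exon bases with Grin1os, Grin2d 9.66% with Gm45441 and Grm2 9.60% with Gm28111. Gm45441 and Gm28111 were at 0.682 and 0.816 FPKM or less in every library. Their part in the values was not tested.

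**Figure D2:**
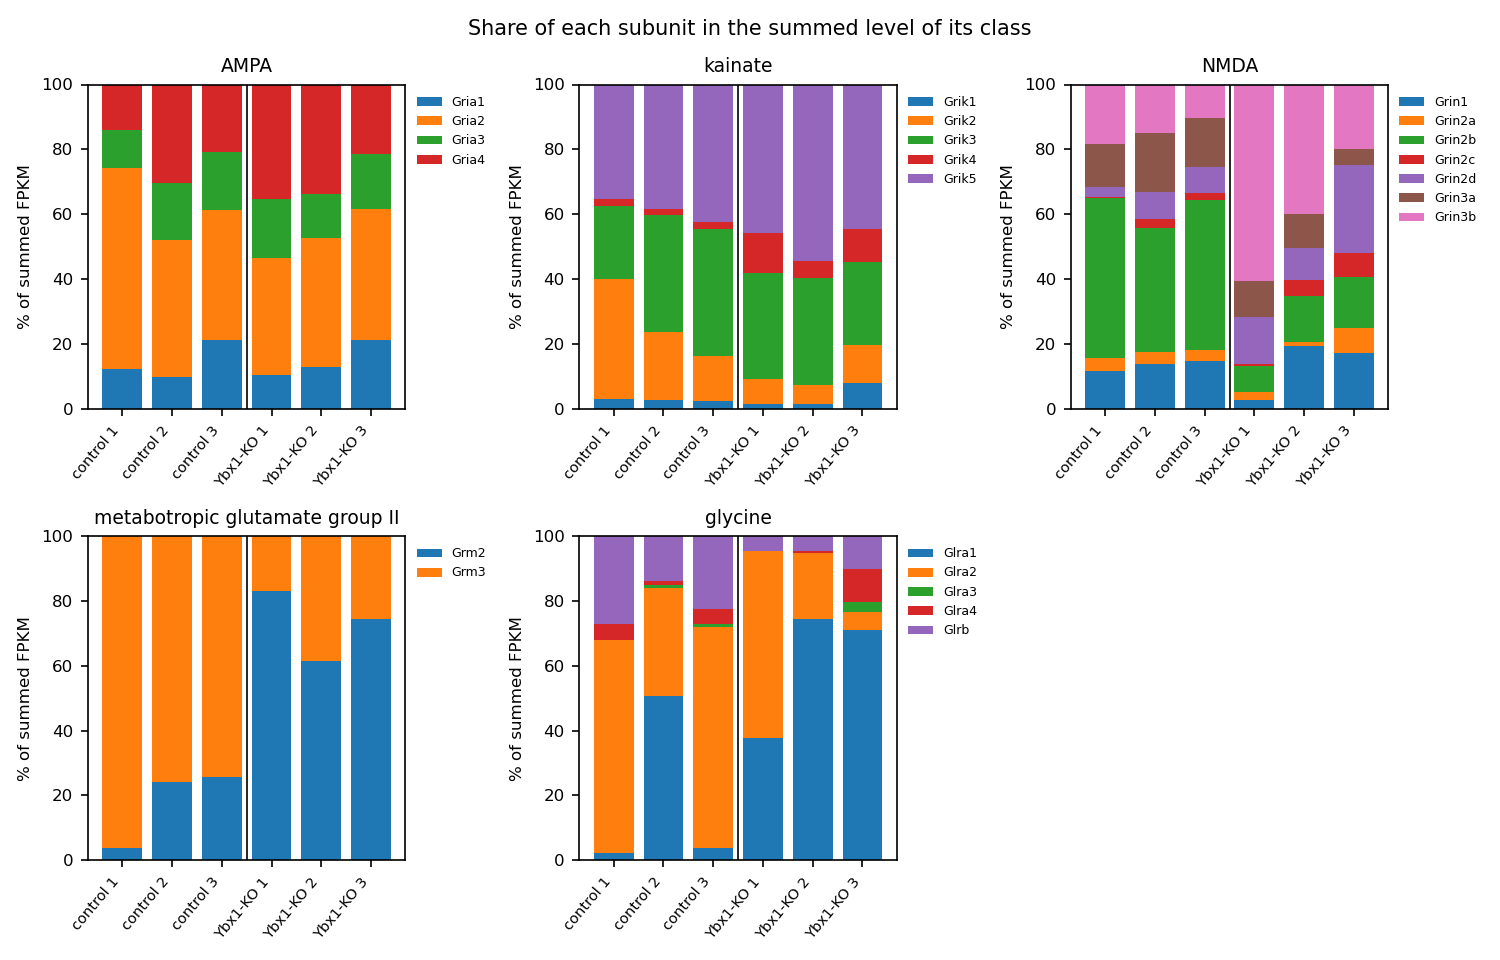
Share of each subunit in the summed FPKM of its class, in percent, as stacked bars for the 6 libraries, with a line between controls and Ybx1-KO. The Grik2, Grin2b, Grin3a, Grm3 and Glrb segments are smaller in every Ybx1-KO library than in any control, the Grik4, Grik5, Grin2d, Grin3b and Grm2 segments are larger, and the others overlap. Shares within a class depend on each other, and those of Grm2 and Grm3 mirror each other.

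Among the metabotropic glutamate receptors of group II, Grm3 was lower and Grm2 higher without overlap, and neither was called. Grm3 entered the test through the controls alone and Grm2 through Ybx1-KO alone, so their opposite directions support no difference. Grm2 and Grm3 are the group II receptors, which lower cyclic AMP through inhibitory G proteins. Grm3 (chr5:9485541-9725170), found in glia and progenitors as well as in neurons, stood at 5.54, 3.09 and 2.57 FPKM in the controls and 0.223, 1.60 and 0.979 FPKM in Ybx1-KO. The groups did not overlap, with a log2 fold change of −1.99 ± 0.72 (SE, edgeR adjusted p = 0.425), though the value of Ybx1-KO 3 was within the range of its silent genes. Grm2 (chr9:106643095-106656082) stood at 0.216, 0.985 and 0.893 FPKM in the controls and 1.09, 2.55 and 2.85 FPKM in Ybx1-KO, with a log2 fold change of 1.63 ± 0.70 (SE, edgeR adjusted p = 0.444). Ybx1-KO 1 was close to control 2 and 3, and control 1 was the lowest library. Grm2 made up 3.75%, 24.2% and 25.8% of the group II sum in the controls and 83.0%, 61.4% and 74.4% in Ybx1-KO, while the sum itself overlapped.

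Among the group III receptors, Grm4 (chr17:27422387-27521403) stood at 0.586, 0.869 and 1.37 FPKM in the controls and 1.65, 2.78 and 1.93 FPKM in Ybx1-KO. All Ybx1-KO libraries were above the highest control, with a log2 fold change of 1.17 ± 0.54 (SE, edgeR adjusted p = 0.444). Grm7 (chr6:110645581-111567230), a low-affinity presynaptic receptor that did not pass the filter, stood at 1.25, 0.660 and 0.708 FPKM in the controls and 0.0578, 0.0176 and 0.628 FPKM in Ybx1-KO. In counts these were 154, 83 and 82 in the controls and 3, 1 and 26 in Ybx1-KO. Ybx1-KO 3 was just below the lowest control and under the 90th percentile of its silent genes. The share of Grm7 in the sum of all metabotropic receptors was 9.24% or more in every control and 5.79% or less in every Ybx1-KO library. Grm5, a group I receptor that releases calcium from stores and is known from embryonic progenitors, spread over the whole range, at 1.82, 0.548 and 1.28 FPKM in the controls and 3.22, 0.0507 and 0.680 FPKM in Ybx1-KO. Its log2 fold change was 0.12 ± 0.84 (SE, edgeR adjusted p = 0.961). Grm6 and Grm8 did not pass the filter and overlapped.

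The GABA-A receptor subunits were lower together. The sum of the 19 subunits was 38.4, 42.0 and 41.9 FPKM in the controls (40.8 ± 2.09, SD, n = 3) and 21.8, 24.3 and 26.0 FPKM in Ybx1-KO (24.02 ± 2.15, SD, n = 3). The sums did not overlap with TMM scaling, but with library totals that of Ybx1-KO 3 would lie above every control. All 6 tested alpha, beta and gamma subunits had a log2 fold change below 0. Of these, 4 were lower without overlap, against 8.15% of the genes tested.

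Among the alpha subunits, Gabra2 stood at 2.18, 1.87 and 2.75 FPKM in the controls and 0.534, 0.449 and 1.54 FPKM in Ybx1-KO. Its log2 fold change was −1.44 ± 0.54 (SE, edgeR adjusted p = 0.432), and −2.23 without Ybx1-KO 3, which was the Ybx1-KO library nearest to the controls. Gabra3 (chrX:72432681-72656848), with Gabra2 one of the alpha subunits typical of immature neurons, stood at 1.96, 2.89 and 3.99 FPKM in the controls and 0.780, 1.75 and 0.398 FPKM in Ybx1-KO. The gap between Ybx1-KO 2 and control 1 was small beside the spread, and Ybx1-KO 3 was within the range of its silent genes. The log2 fold change was −1.58 ± 0.65 (SE, edgeR adjusted p = 0.444). Gabra5, an extrasynaptic subunit, overlapped, with 1.27, 0.913 and 2.55 FPKM in the controls and 0.191, 0.489 and 1.58 FPKM in Ybx1-KO. Gabrb2 overlapped, with a log2 fold change of −0.37 ± 0.52 (SE). Gabra4, Gabra6, Gabrb1, Gabrg1 and Gabrg3 were under the filter and at 1.12 FPKM or less in every library.

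The minor GABA-A subunits had their highest levels in Ybx1-KO 3. Gabrr1, a rho subunit known from the retina, stood at 0.0629, 0.0205 and 0.289 FPKM in the controls, had no counts in Ybx1-KO 1 and 2, and stood at 3.05 FPKM in Ybx1-KO 3. Gabrp, the pi subunit of epithelia, stood at 0.312, 0.457 and 0.0752 FPKM in the controls, had no counts in Ybx1-KO 1, and stood at 0.154 and 2.27 FPKM in Ybx1-KO 2 and 3. Their log2 fold changes of 2.99 ± 2.15 and 1.51 ± 1.66 (SE, edgeR adjusted p = 0.523 and 0.675) were below 0 without Ybx1-KO 3, and that of Gabrr1 depends on the prior count of the fit. A gene with no counts could hold up to 3 counts by chance, which is 0.340 TMM-scaled CPM in Ybx1-KO 1 and 0.312 in Ybx1-KO 2, counting error alone considered. Gabrd, Gabre, Gabrq, Gabrr2 and Gabrr3 were under the filter, at 1.43 FPKM or less in every library, and all 5 were highest in Ybx1-KO 3. Of the 22 members under the filter, 17 had their highest level in Ybx1-KO 3, against 7 of the 28 tested ones.

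With Ybx1-KO 3 set aside, 24 of the 50 members were lower in both other Ybx1-KO libraries than in any control, against 13.2% of the genes with any count, and 5 were higher in both, against 5.87%. Of the 24, 11 were members under the filter. This count is a description of 2 against 3 libraries, and both of these Ybx1-KO libraries were shallower than the controls. The 13.2% is not a like-for-like share, since a gene with no counts in a control cannot be lower. Ybx1-KO 3 had counts on 39553 genes but control 2 on 27356, while 2 of the 50 members had no counts in control 2.

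**Figure D3:**
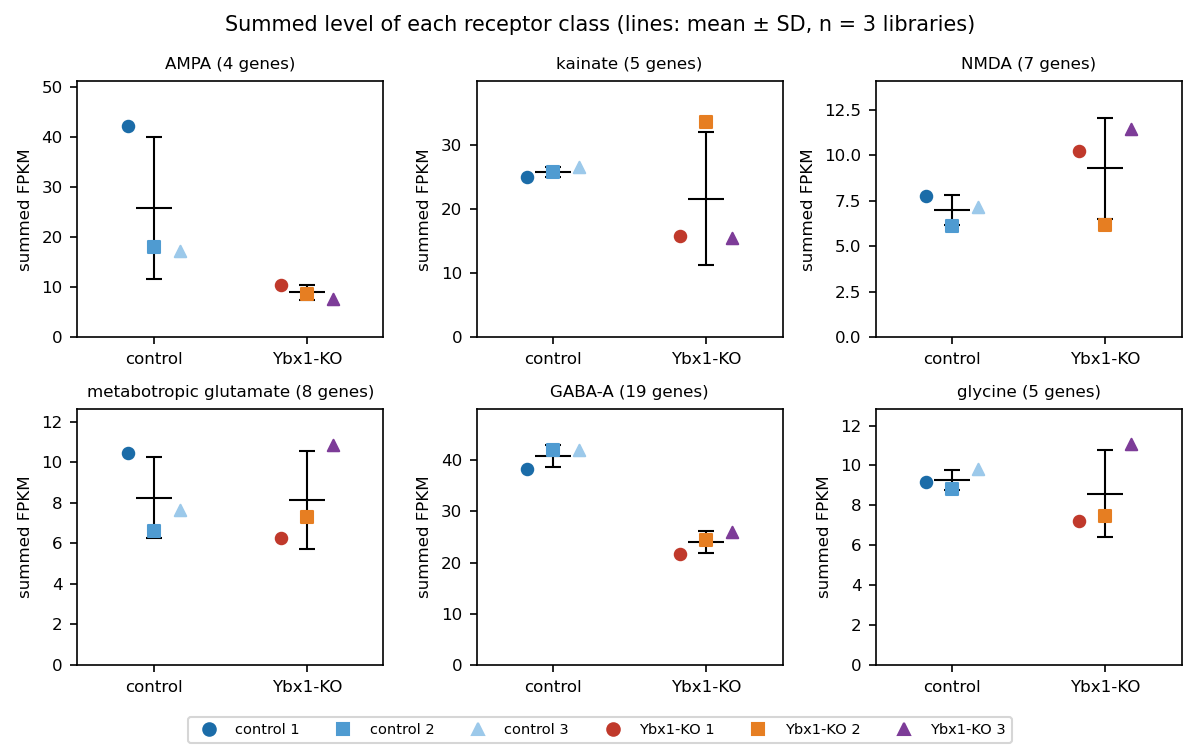
Summed FPKM of 6 receptor classes by library, with the mean and SD of the 3 libraries of each group as black lines. The AMPA and GABA-A sums of all Ybx1-KO libraries lie below those of all controls, and the kainate, NMDA, metabotropic glutamate and glycine sums overlap.

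Among the glycine receptor subunits, Glrb, the beta subunit that ties the receptor to gephyrin, stood at 2.47, 1.23 and 2.19 FPKM in the controls and 0.341, 0.335 and 1.13 FPKM in Ybx1-KO. The groups did not overlap, but Ybx1-KO 3 was just below control 2 and within the range of its silent genes. The log2 fold change was −1.71 ± 0.73 (SE, edgeR adjusted p = 0.444). Glra2, the alpha subunit of the embryo, had the highest mean of the glycine receptor subunits in the controls, at 6.01, 2.93 and 6.71 FPKM, and stood at 4.14, 1.52 and 0.586 FPKM in Ybx1-KO. Here Ybx1-KO 1 lay above control 2, and the log2 fold change was −1.32 ± 0.62 (SE, edgeR adjusted p = 0.444).

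Glra1 (chr11:55514238-55608198), the alpha subunit of the adult spinal cord and brainstem, was split among the controls in the way of the Hox genes. It stood at 0.199 and 0.358 FPKM in control 1 and 3 but at 4.48 FPKM in control 2, and at 2.72, 5.55 and 7.89 FPKM in Ybx1-KO. Control 2, the control with low forebrain and high Hox markers, thus lay among the Ybx1-KO libraries. The log2 fold change of 1.68 ± 0.88 (SE, edgeR adjusted p = 0.450) became 4.26 without control 2, with an edgeR adjusted p of 0.0450. Glra3 and Glra4 did not pass the filter and were at 0.355 and 1.13 FPKM or less in every library. The sum of the 5 glycine receptor genes overlapped between the groups.

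Of the delta glutamate receptors, which act at synapses through binding partners rather than as classical glutamate-gated channels, Grid1 stood at 1.01, 0.801 and 1.07 FPKM in the controls and 1.046, 0.435 and 1.502 FPKM in Ybx1-KO. Its log2 fold change of 0.05 ± 0.68 (SE, edgeR adjusted p = 0.980) was far below its error.

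**Figure D4:**
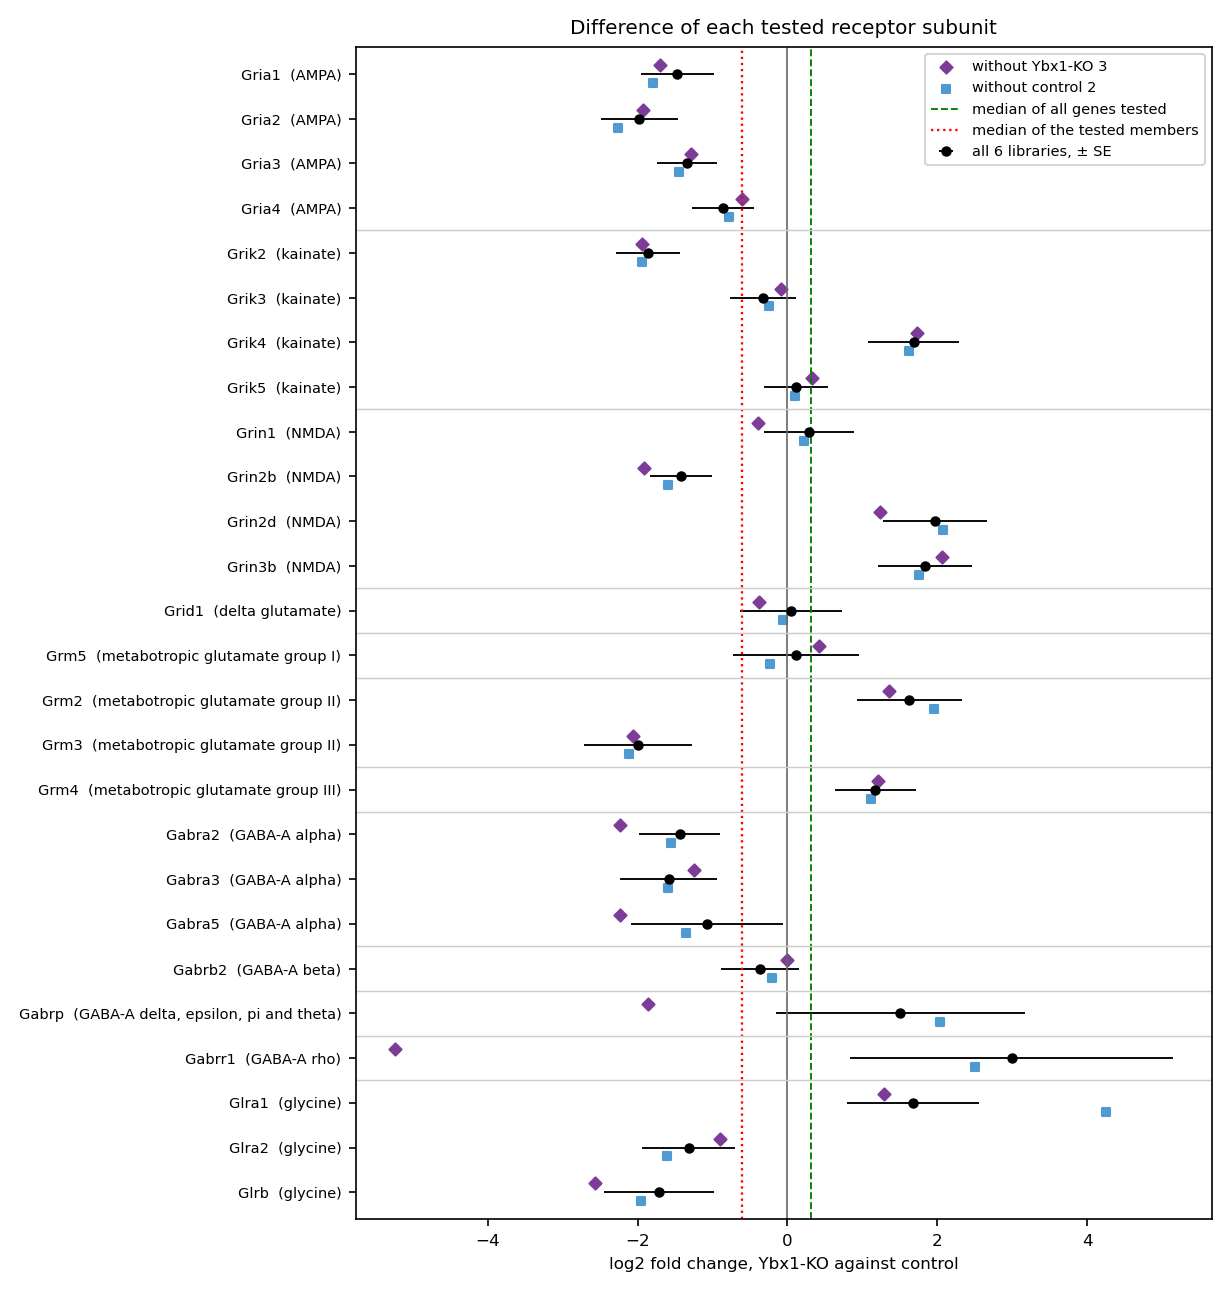
Log2 fold change of 26 of the 28 tested subunits, Ybx1-KO against control, as black points with the SE, beside the value without Ybx1-KO 3 (purple) and without control 2 (blue). The dashed line marks the median of all genes tested, 0.31, and the dotted line that of all 28 tested members, −0.61. Grin1, Grid1, Gabrp and Gabrr1 lie below 0 without Ybx1-KO 3, and Glra1 moves from 1.68 to 4.26 without control 2.

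Ordered by level, the subunits named here began in the controls with Gria2 at 13.6 ± 11.02, Grik5 at 9.98 ± 1.19 and Grik3 at 8.43 ± 2.503 FPKM (SD, n = 3). No gene in this order was separated from the next beyond the SDs. In Ybx1-KO the order was Grik5 at 10.8 ± 6.48, Grik3 at 6.72 ± 3.82 and Glra1 at 5.39 ± 2.59 FPKM (SD, n = 3), none of which differed from the next beyond the spread. Gria2 came after Grin3b there, at 3.46 ± 0.35 FPKM.

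Receptor genes often lie side by side in the genome, and 18 of the 50 members fell into 6 groups with gaps under 1000000 bases on GRCm38. On chromosome 3, Gria2 (80681450 to 80802835) and Glrb (80843599 to 80913660) are neighbours on the minus strand, and both were among the 11 lower members. On chromosome 5, Gabra2 (70957597 to 71095849) lies between Gabrg1 and Gabra4, with Gabrb1 next to Gabra4, and in a fit with no level filter the 4 genes had log2 fold changes from −1.67 ± 0.57 for Gabra2 to −0.74 ± 0.68 for Gabrb1 (SE). On chromosome X, Gabra3 was lower without overlap, while Gabre, under the filter, had a log2 fold change of 1.05 ± 1.29 (SE) in that fit. Gabrb1 and Gabra4 share 46 exon bases on opposite strands.

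**Figure D5:**
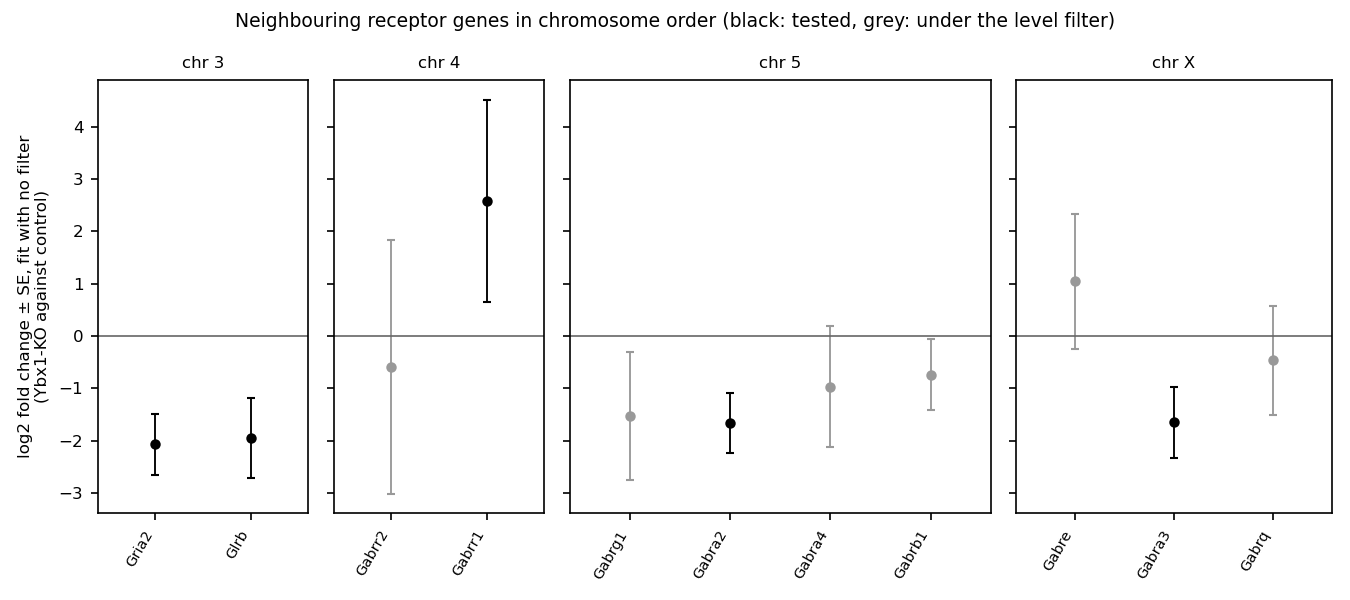
Log2 fold change with its SE for 11 receptor genes in 4 of the groups of neighbours, in chromosome order, from the fit with no level filter. Black points passed the filter of the main test and grey points did not. Both genes on chromosome 3 and all 4 on chromosome 5 lie below 0, and those on chromosomes 4 and X lie on both sides.

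Other genes of glutamate, GABA and glycine signalling included lower members in most groups. Of 56 genes listed as auxiliary subunits, scaffolds, enzymes, transporters, GABA-B subunits and chloride cotransporters, 53 were tested and none was called. At an unadjusted p below 0.05, 9 were lower and 0 higher, against the shares of 4.26% and 6.96% over all genes, and their median log2 fold change was −0.21. Without overlap 10 were lower, against 8.15% of the genes tested, and 1 was higher, against 4.99%. The summed level of the 56 genes overlapped between the groups.

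Some of the lower ones bind the receptors described above. Neto2, an auxiliary subunit of kainate receptors, stood at 14.6, 14.6 and 13.8 FPKM in the controls and 11.7, 6.66 and 5.36 FPKM in Ybx1-KO. Gphn (gephyrin), the scaffold of inhibitory synapses that holds GABA-A and glycine receptors, stood at 12.9, 10.4 and 8.04 FPKM in the controls and 3.57, 7.56 and 3.64 FPKM in Ybx1-KO. Neither overlapped, and their log2 fold changes were −0.86 ± 0.39 and −1.08 ± 0.41 (SE, edgeR adjusted p = 0.444 and 0.432). Cnih3, an AMPA receptor auxiliary subunit, stood at 2.53, 0.902 and 3.16 FPKM in the controls, had no counts in Ybx1-KO 1, and stood at 0.0755 and 0.413 FPKM in Ybx1-KO 2 and 3, with a log2 fold change of −3.77 ± 1.29 (SE, edgeR adjusted p = 0.410). Cacng5, another AMPA receptor auxiliary subunit, was the 1 higher gene, at 0.701, 0.854 and 0.663 FPKM in the controls and 1.15, 2.93 and 1.70 FPKM in Ybx1-KO.

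Grip1, a scaffold that binds AMPA receptors, stood at 3.68, 5.28 and 3.63 FPKM in the controls and 2.31, 2.92 and 1.96 FPKM in Ybx1-KO, without overlap. Dlg2 (PSD-93), a scaffold of NMDA receptors, overlapped by a small margin, at 3.00, 1.62 and 3.64 FPKM in the controls and 0.230, 0.612 and 1.72 FPKM in Ybx1-KO. Their log2 fold changes were −0.81 ± 0.38 and −1.70 ± 0.57 (SE, edgeR adjusted p = 0.444 and 0.405). Gabbr2, a GABA-B receptor subunit, stood at 1.65, 1.70 and 2.64 FPKM in the controls and 0.407, 0.544 and 0.914 FPKM in Ybx1-KO. It was lower without overlap, with a log2 fold change of −1.69 ± 0.56 (SE, edgeR adjusted p = 0.402). Its partner Gabbr1 and the kainate auxiliary subunit Neto1 overlapped, with log2 fold changes of 0.64 and −0.21.

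A pair of transporters that clear the transmitters were lower too. Slc1a3 (GLAST), the glutamate transporter of radial glia, stood at 10.9, 4.33 and 8.90 FPKM in the controls and 2.54, 2.80 and 1.70 FPKM in Ybx1-KO, with a log2 fold change of −1.78 ± 0.42 (SE, edgeR adjusted p = 0.237). Slc6a11 (GAT3), a GABA transporter, stood at 5.58, 1.54 and 5.35 FPKM in the controls and 0.0449, 0.740 and 1.29 FPKM in Ybx1-KO, with a log2 fold change of −2.59 ± 0.77 (SE, edgeR adjusted p = 0.359). Neither overlapped, and the lowest control was control 2 for both, as it was for the forebrain list. Gad2, which makes GABA, and Slc17a6, which loads glutamate into vesicles, overlapped, with log2 fold changes of −0.80 ± 0.45 and −0.68 ± 0.43 (SE). The chloride cotransporters Slc12a2 and Slc12a5, which set the direction of the current through GABA-A receptors, overlapped too, at −0.21 ± 0.39 and 0.58 ± 0.41 (SE) on the log2 scale.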

How the data were processed

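The authors sorted SOX2-positive cells from neural tubes, made TruSeq Stranded Total RNA libraries, sequenced paired 100-cycle reads on HiSeq instruments and, per the labels, deposited counts per gene made with HTSeq 0.6.1p1 on mm10 (GRCm38.p5) with GENCODE annotation. The values are whole, unnormalized read counts. The aligner, the strand setting of the counting and the instrument of each library are not given in the sources used here, so instrument and group cannot be compared. All per-sample columns were used (0 left out), and entries that name no gene were kept out of library sizes; reads outside genes made up 30.6% to 59.5% of a library.

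Counts were scaled by TMM and tested with the quasi-likelihood F test of edgeR 4.0.16 (R 4.3.3), 3 control against 3 Ybx1-KO libraries with no covariate, over 21329 genes. A gene entered if the FPKM of 1 group or the other averaged more than 1. Exon lengths came from GRCm38 GENCODE annotation, where 47624 of 51733 symbols matched by symbol and 365 by an older one. Calls needed a difference of more than 1.5-fold at a Benjamini-Hochberg adjusted p under 0.05. SE is that of the log2 fold change. A p that misses the threshold does not show equal levels. No depth interval is given beyond the floor of 3 counts, 0.140 to 0.426 TMM-scaled CPM.

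The members and lists were chosen with earlier results of these data known. Members given with values in every library were, per class, the tested one with the highest control mean, those with an unadjusted p below 0.05 and those without overlap; from the other lists, the lowest unadjusted p, at most 2 a list. Gria4, Grik3, Grin1, Grin3a, Gabra5, Gabrb2, Glra1, Grm7, Gabbr1, Neto1 and the genes sharing exons were added to complete their class, after their values were seen. Some genes are not reported here. Alternatives were limma 3.58.1 (voom, the study's tool), DESeq2 1.42.0, other scalings and filters, and leaving out libraries. Promoters came from RefSeq on GRCm38.p6. Figures used matplotlib 3.10.9.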

Additional observations from a re-analysis of the deposited data

How the results depend on the processing

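Of 351 comparisons of a named subunit with its value under an alternative, 329 kept direction and side of the threshold, 7 passed the threshold and 15 changed sign. DESeq2 called 118 genes higher and 96 lower, 2 of them members (Gria2 at a log2 fold change of −1.90, adjusted p = 0.0245, and Grik2 at −1.77, adjusted p = 0.0120). No level filter gave 113 and 80, with 1 member (Grik2, edgeR adjusted p = 0.0318). Limma-voom, RLE, upper-quartile and total-count scaling, filterByExpr, the CPM filter and robust fitting called 0. The median of the members was −0.87 in limma-voom, −0.27 with filterByExpr and −0.19 with the CPM filter, and the cause was not tested. Scaling by RLE, upper quartile, totals and limma-voom moved the median of all genes by 0.09, 0.07, 0.22 and −0.16. Relative to that median, the members' median stayed between −0.92 and −1.02. The gap was smaller beside other genes: relative to the protein-coding genes of the main fit it was −0.66. Genes with exons at least as long as the median tested member had a median of −0.18. Without Ybx1-KO 3 the medians were −0.75 for the members and −0.16 for all genes. Total counts left 7 lower subunits without overlap and RLE and upper quartile 9 each, and the group II median of −0.18 was 0.03 with totals.

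Leaving out 1 library each gave 0 to 283 genes called higher, 0 to 137 lower and 0 to 1 members. With the filter applied again these were 0 to 730, 0 to 216 and 0 to 5: 29, 44 and 1 without control 2 (Glra1), 531, 165 and 5 without Ybx1-KO 1 (Gria2, Gria3, Grik2, Glra1, Glra2), and 730, 216 and 3 without Ybx1-KO 2 (Gria2, Grik2, Grin2d). The median of the members ran from −1.08 to −0.52. Without both control 2 and Ybx1-KO 3, chosen after seeing the data, 264 genes were called higher and 202 lower, with 4 members: Gria2 at −2.23, Grik2 at −2.04, Grin2b at −2.10 and Glra1 at 3.83 on the log2 scale.

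The sign changed for subunits near 0 or of low counts. In limma-voom the log2 fold changes were −0.022 for Grik5, −0.17 for Grid1, −1.24 for Grm5 and −0.38 for Gabrp. Grid1 was −0.14 with no filter. Over the single libraries left out, Grik5 ran from −0.50 to 0.34, Grid1 from −0.38 to 0.41, Grm5 from −1.76 to 0.68, Gabrp from −1.86 to 2.09 and Gabrr1 from −5.24 to 4.47. Without both libraries Grid1 was −0.51, Gabrp −1.35 and Gabrr1 −5.61. The cause was not tested.

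No paired analysis was possible because no number in the titles is shared by a control and a Ybx1-KO sample. Ybx1-KO 3 was the shallowest library, with 4743279 counts, but 0 of the 50 subunits had no counts there, against 11 in Ybx1-KO 1 and 5 in Ybx1-KO 2. In Ybx1-KO 3 the low subunits were limited by the level of its silent genes, with 30 of 50 at or below their 90th percentile.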
